A study of Mus musculus with 2 samples.

Results

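A group of 138 cells in the library labelled Isl1CKO combined very high Ttr, the transcript of the thyroid hormone and retinol carrier transthyretin, with transcripts of dividing cells. They were chosen by measured values from the 2987 Isl1CKO barcodes that held at least 500 genes and at most 15% mitochondrial UMIs (unique molecular identifiers, each standing for 1 captured transcript). Ttr had to make up at least 5% of a cell's UMIs and the insulin genes Ins1 and Ins2 under 1%, which 1418 cells met. Within these Ttr-high cells, the UMIs of Mki67, Top2a, Cdk1, Cenpf, Hmmr, Ube2c and Rrm2 had to sum to at least 10 (the cycling sum). The 138 cycling cells were 9.73% of the Ttr-high cells (exact binomial 95% interval 8.24% to 11.4%), and the other 1280 Ttr-high cells served as their comparison.

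The cells came from islets of mice aged 9 days and had been sorted for tdTomato. Animals of both libraries carried Neurod1 Cre/+, a Cre recombinase that acts in cells with a history of Neurod1 expression, an endocrine gene. The control library was Isl1f/+ and the Isl1CKO library Isl1f/f, so the control carried 1 floxed allele of Isl1 as well. Each library pooled 6 animals and each genotype had 1 library, so no difference between cells or genotypes has a replicate check and no test was run. All intervals are exact 95% intervals for counting error only, and cells of a library are not replicates. Actinomycin D, an inhibitor of transcription, was present while the islets were dissociated.

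Cells that divide pass through G1, copy their DNA in S phase, prepare for division in G2 and separate the chromosomes in M phase. Genes for DNA replication are transcribed from late G1 into S phase, largely through E2F factors, and genes for the spindle, the kinetochore and the exit from mitosis follow in G2 and M, largely through the MuvB, B-Myb and FoxM1 complexes. Cyclins with their kinases (CDKs) drive the steps, and CDK inhibitors hold them back. Endocrine cells of the islet still divide in the first weeks after birth and do so rarely in adults. Isl1 encodes a LIM-homeodomain factor that islet endocrine cells use, and Slc38a5 is a transporter of glutamine and other neutral amino acids that alpha cells are known to use when they multiply.

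Median depth was 25045 UMIs and 4787 genes per Isl1CKO cell and 22686 UMIs and 4128.5 genes per control cell (2496 control cells). Isl1 was counted at 459 CPM (UMIs scaled to a common total; 454 to 463) over all Isl1CKO cells, with a UMI in 96.4% of them, and at 254 CPM (250 to 257) in control cells. Counts from the 3' end do not check the deletion, since the floxed exon is not named in the labels. Only 4 barcodes occurred in both libraries, and 0 of them was a cycling Ttr-high cell. Cycling Ttr-high cells were deeper than the others, with a median of 33691.5 against 28457.5 UMIs and 5569.5 against 5077 genes. After thinning to 10000 UMIs per cell, they held a median of 3055 genes and the others 2959. The mitochondrial share had a median of 1.38% against 1.60%. Above the library's 95th percentile of UMIs lay 14 of the 138 cycling and 32 of the 1280 other cells. Cells with both Xist and Y-linked UMIs, which in a pool of both sexes can hold 2 cells, numbered 5 of 138 (3.62%) and 39 of 1280 (3.05%).

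The cycling sum was unevenly spread. Of the Ttr-high cells, 848 (59.8%) held none of the 7 transcripts, 398 held 1 to 4 UMIs, 34 held 5 to 9, 22 held 10 to 19, 23 held 20 to 39 and 93 (6.56%) held 40 or more. Just outside the rule were 4 cells with a sum of 8 and 3 with 9, and just inside it 2 cells with 10 and 2 with 11. The median sum in the cycling cells was 66.5 and the highest 447. Mki67, which coats mitotic chromosomes, was counted in 135 of the 138 cells, Hmmr, a spindle protein, in 128, and Ube2c, the E2 enzyme of the anaphase-promoting complex, in 125. Cenpf was counted in 123 cells, the mitotic kinase gene Cdk1 in 122, topoisomerase gene Top2a in 112, and Rrm2, a subunit of ribonucleotide reductase, in 101. These genes chose the cells, so their levels are a description of the rule. Ttr itself made up a median of 9.06% of UMIs in the cycling cells (5.02% to 22.0%) and 10.4% in the others, and 13 cycling cells lay between 5% and 6%.

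**Figure D1:**
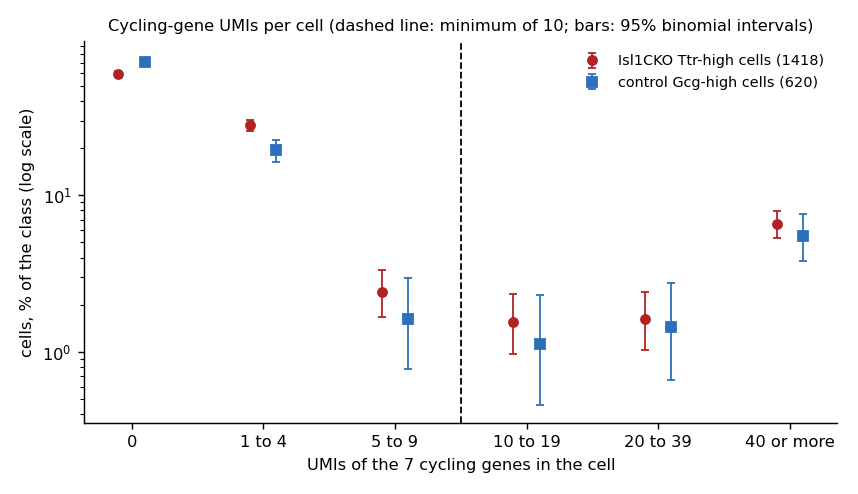
Share of cells of each class (log axis, percent) by the sum of UMIs of the 7 cycling genes, for Isl1CKO Ttr-high cells and control Gcg-high cells, with exact binomial 95% intervals. Both classes have few cells with sums of 5 to 9 (34 of 1418 and 10 of 620) and more at 40 or above (93 and 34).

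Most cycling cells of the Isl1CKO library were Ttr-high. Of its 165 cells with a cycling sum of at least 10, 138 (83.6%; 77.1% to 88.9%) met the Ttr and insulin limits. Of the 27 outside, 16 had insulin under 1% and Ttr under 4%, 4 had Ttr between 4% and 5%, 6 had Ttr under 5% with insulin at or above 1%, and 1 had high Ttr with insulin at or above 1%. Isl1CKO cells with insulin at 5% or more cycled in 6 of 573 cases (1.05%; 0.385% to 2.27%) and the remaining Isl1CKO cells in 21 of 996 (2.11%; 1.31% to 3.20%).

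The control class with most glucagon, Gcg-high cells (Gcg at least 5% and insulin under 1% of UMIs), held 50 cycling cells among 620 (8.06%; 6.04% to 10.5%). Its interval overlaps that of the Ttr-high cells. Of the 111 control cells that met the Ttr and insulin limits themselves, 10 cycled (9.01%; 4.41% to 15.9%). Control insulin-rich cells cycled in 44 of 918 cases (4.79%; 3.50% to 6.38%) and cells rich in Sst or Ppy in 22 of 725 (3.03%; 1.91% to 4.56%). Thinned to 10000 UMIs per cell, with a cycling sum of at least 4, the shares were 10.0% of 1410 Ttr-high cells (8.48% to 11.7%) and 8.42% of 606 Gcg-high cells (6.33% to 10.9%). They were 1.24% of 566 Isl1CKO and 4.05% of 913 control insulin-rich cells. Thinning left out 108 Isl1CKO and 106 control cells as too shallow. Among Ttr-high cells with Xist and no Y-linked UMI, 57 of 559 cycled (10.2%), and among those with Y-linked UMIs and no Xist 74 of 785 (9.43%).

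**Figure D2:**
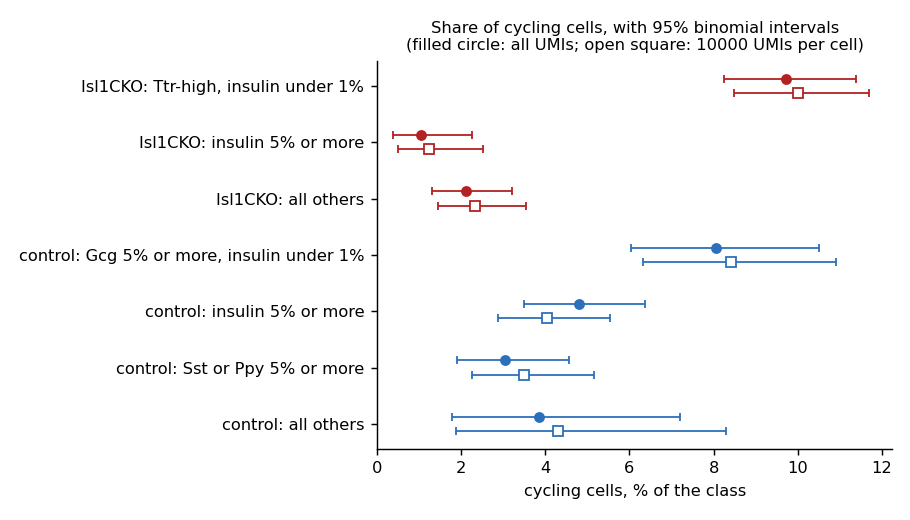
Percent of cells called cycling in each class of both libraries, at the cells' own depth (cycling sum of at least 10) and after thinning to 10000 UMIs (at least 4), with exact binomial 95% intervals. Isl1CKO Ttr-high cells (9.73% and 10.0%) and control Gcg-high cells (8.06% and 8.42%) are the highest of the classes with over 200 cells, and Isl1CKO insulin-rich cells the lowest.

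The promoters of cell cycle genes are printed here because many of the transcripts that set these cells apart share short promoter elements. The windows below run from 130 bases before to 30 after the RefSeq start (GRCm38.p6), on the strand of the gene. Capitals mark the CHR element TTTGAA, bound by MuvB complexes, and the CCAAT box CCAAT, bound by NF-Y, on either strand (TTCAAA and ATTGG on the other). The centromere histone gene Cenpa (chr5:30666756-30666915, plus strand) and the B-type cyclin gene Ccnb2 (chr9:70421525-70421684, minus strand) mark the cells without having been in the cycling sum, Hmmr (chr11:40733408-40733567, minus strand) and Ube2c (chr2:164769799-164769958, plus strand) were in it, Mcm5 (chr8:75109379-75109538, plus strand) stands for the replication genes, and Slc38a5 (chrX:8271251-8271410, plus strand) marks Ttr-high cells whether or not they cycle.
Cenpa: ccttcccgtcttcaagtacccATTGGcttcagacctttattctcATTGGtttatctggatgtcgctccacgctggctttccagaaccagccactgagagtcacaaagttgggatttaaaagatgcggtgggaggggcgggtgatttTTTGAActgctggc
Ccnb2: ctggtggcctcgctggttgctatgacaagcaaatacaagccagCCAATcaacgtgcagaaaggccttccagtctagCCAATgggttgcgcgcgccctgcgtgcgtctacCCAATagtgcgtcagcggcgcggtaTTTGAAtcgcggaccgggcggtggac
Hmmr: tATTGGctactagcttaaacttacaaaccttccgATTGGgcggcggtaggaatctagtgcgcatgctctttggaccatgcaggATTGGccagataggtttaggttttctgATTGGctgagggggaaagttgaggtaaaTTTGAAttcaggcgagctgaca
Ube2c: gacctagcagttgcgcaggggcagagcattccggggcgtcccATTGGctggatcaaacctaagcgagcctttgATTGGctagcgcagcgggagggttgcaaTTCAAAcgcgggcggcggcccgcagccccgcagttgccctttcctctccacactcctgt
Mcm5: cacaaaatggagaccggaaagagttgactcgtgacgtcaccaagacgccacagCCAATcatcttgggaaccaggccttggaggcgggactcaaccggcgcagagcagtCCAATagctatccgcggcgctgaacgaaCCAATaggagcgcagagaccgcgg
Slc38a5: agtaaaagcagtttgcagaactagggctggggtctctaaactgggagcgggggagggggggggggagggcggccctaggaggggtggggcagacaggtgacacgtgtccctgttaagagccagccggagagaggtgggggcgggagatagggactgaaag

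Each of the first 4 windows held 1 CHR element, with its leftmost base at 17 in Cenpa, 5 in Ccnb2, 9 in Hmmr and -29 in Ube2c, counted from the start. They held 2, 3, 4 and 2 CCAAT boxes. The Mcm5 window held 3 CCAAT boxes and no CHR, and the Slc38a5 window neither. Rrm2, also in the cycling sum but not printed, had 1 CCAAT box and no CHR in the same window. In the full windows, from 250 bases before to 50 after the start, the CHR element stood in 17.9% of all 32851 promoters of the table, in 27 of 46 promoters of the G2/M list (58.7%) and in 22 of 28 of the spindle and cytokinesis list (78.6%). It stood in 9 of 24 promoters of the kinetochore list (37.5%), 6 of 33 of the S phase list (18.2%) and 3 of 21 of the granule list (14.3%). At least 1 CHR with at least 2 CCAAT boxes stood in 2.09% of all promoters and in 34.8% of the G2/M list. At least 2 CCAAT boxes, with or without a CHR, stood in 11.7% of all promoters. That share was 50% in the G2/M list and 45.5% in the S phase list. The E2F sequences TTTCGCGC and TTTGGCGC, on either strand, were present in 0.813% of all promoters, in 7 of 33 of the S phase list (21.2%), in 9 of 30 of the licensing and fork list and in 1 of 46 of the G2/M list (2.17%). The table matched 41 of 47 genes of the G2/M list, 30 of 42 of the S phase list, 25 of 27 of the spindle list and 25 of 32 of the licensing list. A match is a description of the letters and not a binding site.

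Genes were compared on summed UMIs as the log2 ratio of CPM, relative to the median gene, when at least 50 UMIs stood in the group with the higher CPM, and called by a size rule of 2-fold. Between cycling and other Ttr-high cells, 10625 genes could be compared; 799 were higher (7.52%) and 376 lower (3.54%). For 626 of the higher genes the whole interval lay beyond 2-fold, and for 11 of the lower. Without setting ratios relative to the median gene, which stood at -0.14, the counts were 698 and 545. The lowest CPM that could be compared was 10.4 for a gene higher in the cycling cells and 1.34 for one lower in them. The same comparison in the control, cycling against other Gcg-high cells, covered 7689 genes, with 664 higher (8.64%) and 510 lower (6.63%). The cells were split by cell cycle genes, so the groups of such genes that follow describe what came with the rule.

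DNA replication genes were higher in the cycling cells nearly throughout. Of the 41 S phase genes compared, 40 were higher, with a median log2 ratio of 3.27, and all 31 compared genes of replication licensing and the fork were higher (median 3.18). Control Gcg-high cells gave 37 of 37 and 25 of 25, with medians of 3.31 and 2.65. Mcm6, a subunit of the replicative helicase (chr1:128331590-128359664, minus strand), was at 113 CPM in cycling and 16.2 CPM in other Ttr-high cells, a log2 ratio of 2.94 (2.77 to 3.11). A UMI of Mcm6 was found in 93 of 138 cycling cells and 244 of 1280 others. Mcm5 stood at 3.70 and Mcm10 at 4.45, and the loading factors Cdc6 and Cdt1 at 3.70 and 3.84. Pcna, the sliding clamp, was at 2.98, the checkpoint adaptor gene Clspn at 6.34 and Uhrf1, which recognises newly copied DNA, at 5.89. In nucleotide synthesis 11 of 17 compared genes were higher (median 1.16). Thymidine kinase Tk1 at 6.01 and thymidylate synthase Tyms at 4.38 were the largest of those examined, and the purine synthesis genes Atic (0.52) and Gmps (0.33) stayed within 2-fold.

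Mitotic genes showed the largest ratios. All 27 compared spindle and cytokinesis genes were higher (median 6.90; 2.15 to 9.23), as were 46 of 47 G2/M genes (6.25) and all 24 kinetochore and centromere genes (5.56). In control Gcg-high cells the counts were 24 of 24, 43 of 43 and 21 of 21, with medians of 7.28, 7.12 and 5.60. Birc5, the survivin subunit of the chromosomal passenger complex (chr11:117849251-117855743, plus strand), was at 292 CPM in cycling and 0.617 CPM in other cells, with a UMI in 125 of 138 and 18 of 1280 cells (log2 ratio 9.03; 8.44 to 9.69). Bub1, a spindle checkpoint kinase, was found in 98 and 3 cells, and Plk1, a kinase of mitotic entry, in 90 and 6. Aurora kinase genes Aurka and Aurkb stood at 6.22 and 8.90, and Cdc20, an activator of the anaphase-promoting complex, at 6.80. Core subunits of that complex differed less, with Anapc1 at 0.48, Anapc4 at 0.11 and Cdc27 at 0.57. Of the markers that the cycling sum did not use, Cenpa (chr5:30666777-30674830, plus strand) was at 491 CPM against 4.80 CPM, with a median of 12 UMIs in the cycling cells and a UMI in 113 of 138 against 78 of 1280 cells. Ccnb2 (chr9:70407692-70421547, minus strand) was at 347 against 4.05 CPM, in 123 and 51 cells.

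Among the 12 genes with the highest ratios outside the fixed cell cycle lists were the mitotic kinase gene Pbk (8.01), the kinetochore gene Ska1 (8.33) and Melk, as well as several replication-dependent histone genes. Hist1h1b, a linker histone, was at 1207 CPM against 3.00 CPM, with a UMI in 90 of 138 cycling cells and 67 of 1280 others. Its median was 2.5 UMIs per cycling cell, and its upper quartile 67.25, so its counts were uneven across cells. Histone genes are near-identical copies, so counts of single members such as Hist1h2af (10.25) are uncertain. Cep55, needed for the final cut between daughter cells, had 97 UMIs in the cycling cells and 0 in the others, a difference of at least 8.12 on the log2 scale against a floor of 3 UMIs.

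**Figure D3:**
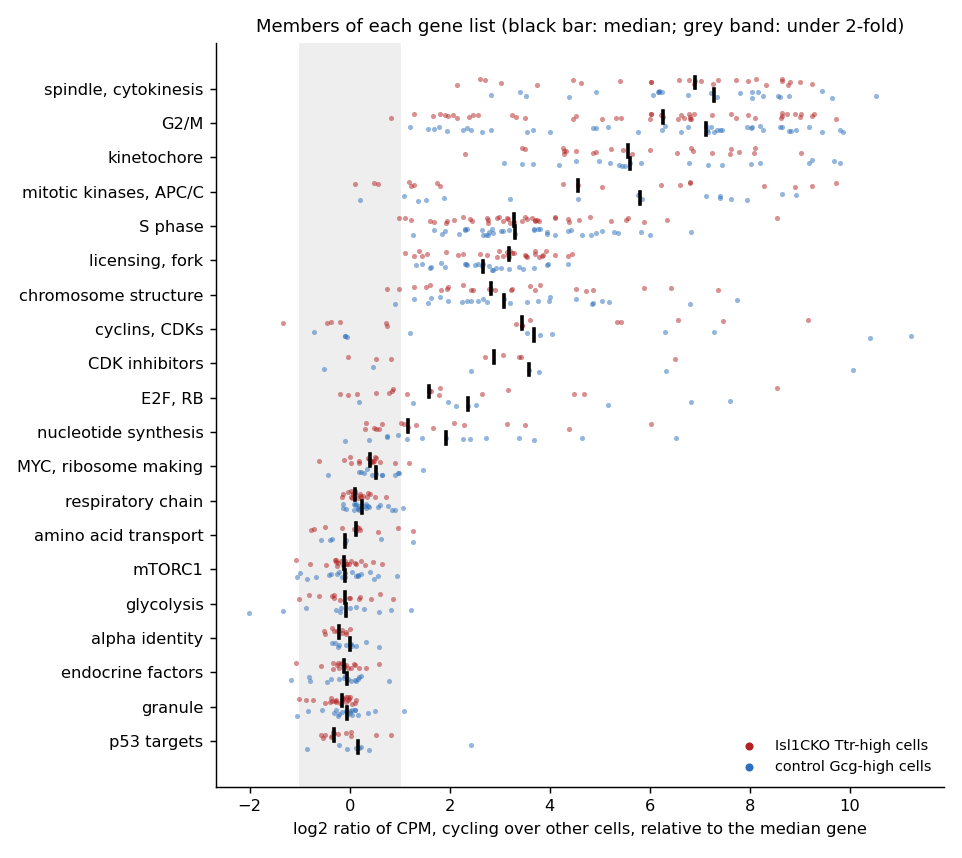
Log2 CPM ratio of cycling against other cells for the members of 20 gene lists (points; red, Isl1CKO Ttr-high; blue, control Gcg-high; black bars, medians), relative to the median gene, with the range under 2-fold in grey. Spindle, G2/M and kinetochore lists have medians above 5 in both, replication lists near 3, and the medians of identity, granule and metabolic lists lie in the grey band.

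Cyclins and their kinases split by family. Of 15 compared, 9 were higher and 1 lower (background 7.52% and 3.54%). The mitotic cyclins Ccnb1 (7.45) and Ccna2 were far higher. Ccna2 (chr3:36564865-36572150, minus strand) stood at 154 against 0.295 CPM and had a UMI in 116 of 138 and 11 of 1280 cells. Cyclins E, which act at the start of S phase, were also higher (Ccne1 3.60, Ccne2 3.45). D-type cyclins, which link growth signals to the cell cycle, were not: Ccnd1 stood at -0.36, Ccnd2 at -0.46 (-0.51 to -0.41) and Ccnd3 at 0.74. Ccnd2 was counted in 137 of 138 cycling cells, with a median of 20 UMIs against 26 in the other cells. Cdk2 was at 3.44 and Cdk4 at 0.73. Cdk6 was counted in 5 of 138 cells and was lower (-1.32), on 6 UMIs.

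CDK inhibitors were higher as well, 5 of 8 compared, with a median of 2.88. Cdkn2c, which binds Cdk4 and Cdk6, was at 107 CPM in cycling and 11.3 CPM in other Ttr-high cells (3.39; 3.20 to 3.58), and in control Gcg-high cells at 156 against 2.39 CPM (6.31; 5.75 to 6.93). Cdkn1a, an inhibitor and p53 target, was within 2-fold in the Ttr-high cells, at 174 against 108 CPM (0.83; 0.72 to 0.93), and higher in the control pair, at 199 against 45.4 CPM (2.42; 2.20 to 2.63). Whether the Cdkn1a ratios of the 2 libraries differ cannot be tested with 1 library each. Cdkn3, a phosphatase that removes the activating mark of CDKs, was at 6.50 and Cdkn2a at 3.42. Cdkn1b (0.53) and Cdkn1c (-0.04) differed by less than 2-fold. None of the 13 compared p53 target genes was called in either direction (median -0.32; in the control pair 0.16).

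Of the E2F, pocket protein and MuvB genes, 11 of 18 were higher (median 1.58). The repressors E2f7 and E2f8 stood at 4.69 and 8.54, the activators E2f1 and E2f2 at 1.80 and 1.58, and Foxm1, the G2/M activator, at 4.47. Pocket protein gene Rbl1 was at 3.16 and Rb1 at 1.14, whereas Rbl2 (-0.03) and E2f4 (0.15), of the repressor complex of resting cells, did not differ by 2-fold. Of the 25 chromosome structure genes, 23 were higher, among them the condensin genes Ncaph (7.36) and Smc2 (4.87), the chromatin protein gene Hmgb2 (3.70), the maintenance methyltransferase gene Dnmt1 (2.78) and Ezh2 (3.23).

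Most identity genes differed by less than 2-fold between cycling and other Ttr-high cells. Slc38a5 (chrX:8271133-8280179, plus strand) was at 10124 CPM in cycling and 12416 CPM in other cells (-0.15; -0.17 to -0.14), in 138 of 138 and 1279 of 1280 cells, with medians of 333 and 340 UMIs. Isl1 (chr13:116298281-116309689, minus strand) was counted in 137 of 138 cycling cells, at 389 against 508 CPM (-0.24; -0.31 to -0.17), with medians of 12 and 13 UMIs. None of 10 compared alpha cell genes was called, but all had ratios below the median gene (-0.51 to -0.0003). Their median was -0.21, and -0.35 without setting ratios relative to the median gene. Irx1 stood at -0.07, Irx2 at 0.00 and Pou3f4 at -0.32, transcription factors of alpha cells, and Pcsk2, the protease that makes glucagon, at -0.08. Of 19 endocrine transcription factor genes 0 were higher and 1 lower, with Pax6 at -0.03, Neurod1 at 0.33, Insm1 at 0.58 and Rfx6 at -0.58. The 1 lower gene was Hnf4g (-1.07). Neurog3, the factor of endocrine progenitors, had 6 UMIs in 4 of 138 cells (1.25 against 2.79 CPM; -1.01, -2.49 to 0.16).

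Despite the alpha cell transcription factors, glucagon was low. Gcg (chr2:62474530-62483650, minus strand) was at 1354 CPM in cycling and 2121 CPM in other Ttr-high cells (-0.51; -0.54 to -0.47), against 250008 CPM in cycling control Gcg-high cells, a class chosen for Gcg. Per cell the median was 3 UMIs in cycling and 4 in other Ttr-high cells, the highest 823 and 6969. A Gcg UMI was found in 75.4% of cycling Ttr-high cells and in 19.2% of Isl1CKO insulin-rich cells, which should lack it, at median depths of 33691.5 and 32493 UMIs and levels of 1354 and 52.4 CPM. With Gcg this low, the label of an alpha cell is not given to these cells.

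Hormone and secretory genes followed the same pattern of small differences. Of 13 compared islet hormone genes, 1 was higher and 1 lower, and each rested on a single cell. Iapp (1.08) had 55.4% of its UMIs in 1 cycling cell and stood at 0.11 without the top cell of each group; Sst (-4.18) had 93.5% of the UMIs of the other cells in 1 cell and stood at -0.92 without them. Ghrelin (Ghrl) was at 0.36 and Pyy at -0.58. Chga, the main granin, was at -0.06 and Chgb at -0.35. The granule list had 0 of 23 higher and 1 lower (Rab3a, -1.01; -1.26 to -0.76), with a median of -0.16, and the excitability and exocytosis list 0 of 18 in either direction (-0.28). Rab3a, a vesicle GTPase, was at -1.05 (-1.59 to -0.56) in the control pair.

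Metabolic and growth lists lay near the median gene. Medians were 0.11 for 22 nuclear genes of oxidative phosphorylation (0 called), -0.10 for 14 glycolysis genes (0 higher, 1 lower), 0.41 for 18 genes of Myc and ribosome assembly (1 higher, Nop56, 1.18), -0.11 for 22 mTORC1 genes (1 lower, Ddit4, -1.08) and -0.28 for 12 growth signalling genes (0 called). Aldoa, the glycolytic aldolase, was the lower glycolysis gene, at 239 against 531 CPM (-1.01; -1.10 to -0.93), and in the control pair at 44.7 against 218 CPM (-2.01; -2.40 to -1.64). Slc1a5, a glutamine transporter, was the 1 higher of 12 amino acid transport genes (1.26). The immediate early gene Jun was higher in both pairs, at 33.8 against 14.9 CPM in Ttr-high cells (1.33; 1.07 to 1.58) and 119 against 57.7 CPM in Gcg-high cells (1.32; 1.07 to 1.57). Egr1 was lower in both (-1.35 and -1.03).

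The genes with the lowest ratios outside the lists included Tcp11l2 (-2.15), Bhlha15 (-2.38), a factor of secretory cells, Rem2 (-1.56), a regulator of calcium channels, Sytl1 (-1.38), which tethers granules, and Aldoc (-1.24), another aldolase. Mocs1 had 0 UMIs in the cycling cells and 87 in the others. Mvp (-1.62) was also among them, but its exons overlap Pagr1b, so its counts are uncertain.

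The cycling cells were then ordered by phase, as the share that S phase genes had in the UMIs of the S and G2/M lists together. In 70 cells (50.7%) it was under 20%, in 30 (21.7%) from 20% to under 50%, and in 38 (27.5%; 20.3% to 35.8%) at least 50%. These are ranges of a score and not cell types, and 27 cells lay between 40% and 60%. Of the 50 cycling control Gcg-high cells, 17 (34.0%), 14 (28.0%) and 19 (38.0%; 24.7% to 52.8%) fell in the same ranges. Median depth in the 3 ranges of Ttr-high cells was 28271, 36006.5 and 38129 UMIs.

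**Figure D4:**
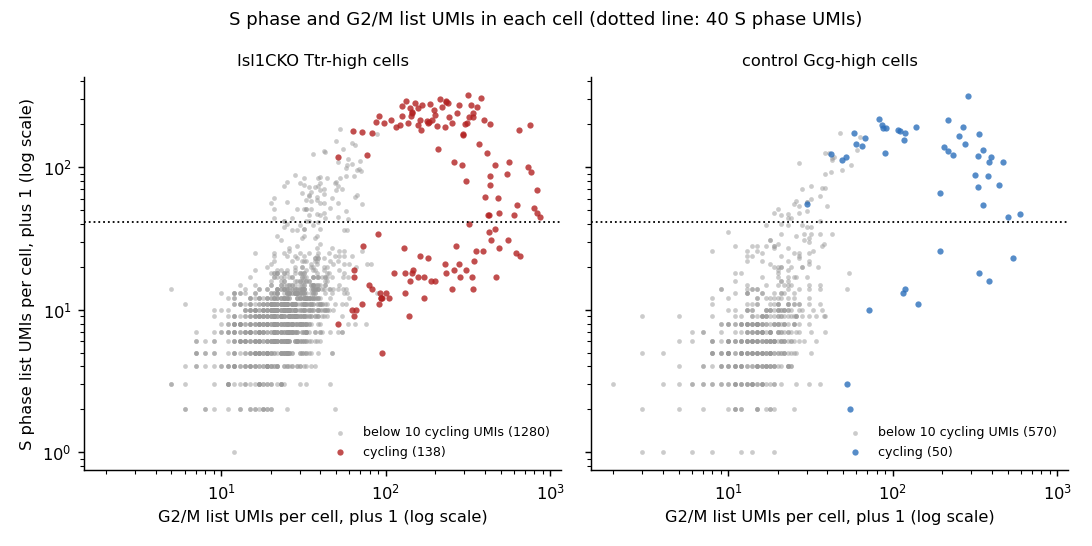
UMIs of the S phase list against those of the G2/M list in each Ttr-high cell, cycling and other, with a dotted line at 40 S phase UMIs. Cycling cells extend along both axes, and 82 of the 1280 other cells lie at or beyond 40 S phase UMIs. In those 82 cells the S phase share had a median of 62.9% (42% to 78.0%). No cell of the 1280 held over 88 G2/M UMIs, against a median of 215.5 in cycling cells.

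Cells with at least 50% S phase UMIs were set against the 100 below that share for genes in general. Of 5685 genes compared, 183 were higher (3.22%) and 249 lower (4.38%), and the members of the 2 lists that made the ranges are a description. Ung, which removes uracil from DNA, stood at 6.07. Outside the ordering lists, Slfn9 stood at 2.53 and the mismatch repair gene Msh6 at 2.58. Afp ranked highest, but its 70 UMIs in S-leaning cells came from 1 cell. The lowest by the interval bound nearest to 0 were Cenpa (-4.97), Cdkn3 (-3.29), Cenpe (-3.26), a kinetochore motor, Ccnb2 (-3.15), Gas2l3 (-3.42) and Cdc20 (-2.93). Ccna1, a cyclin best known from the germ line, had 0 against 55 UMIs. Ifi27l2a (-4.93), Serpinb8 (-4.83) and Vangl1 (-4.08) ranked after them, on 1, 1 and 2 UMIs in the S-leaning cells.

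Members of the ordering lists differed along the ranges, as the ordering requires. From the lowest to the highest S share, Mcm6 was at 17.9, 116 and 248 CPM and the chromatin remodeller gene Hells at 12.0, 99.5 and 233 CPM. Cenpa was at 935, 256 and 20.7 CPM and Ccnb2 at 618 and 218 CPM in the first 2, with 75 UMIs left in the last. Linker histone Hist1h1b was highest in the middle range, at 147, 2911 and 1478 CPM. Ccnd2 was at 541, 637 and 893 CPM. Slc38a5 (10795, 8769 and 10159 CPM) and Isl1 (403, 344 and 401 CPM) were near level. Gcg had medians per cell of 8, 1 and 3 UMIs, and cells with over 100 Gcg UMIs numbered 12 of 70, 0 of 30 and 3 of 38.

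**Figure D5:**
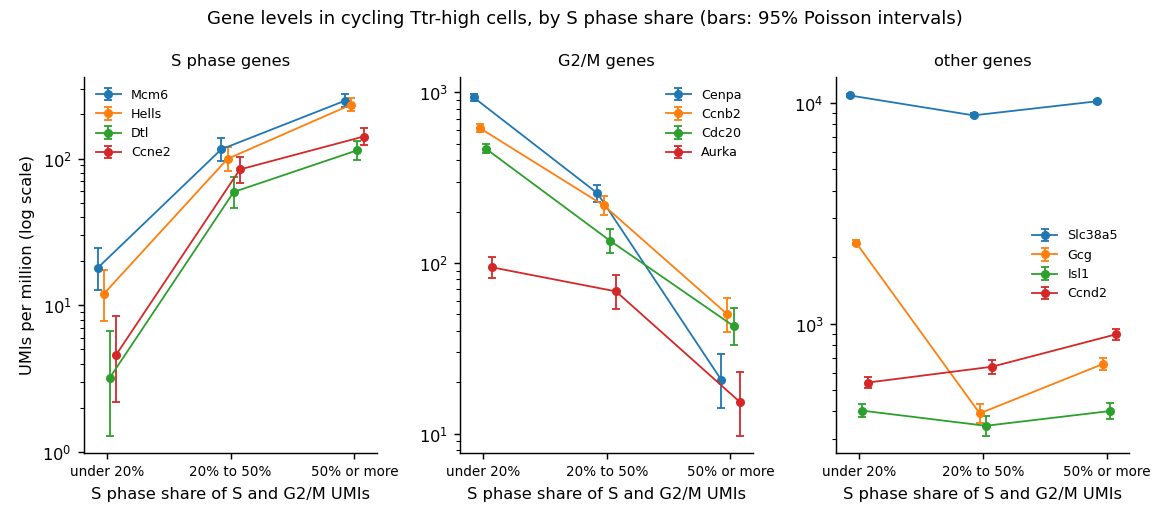
CPM (log axis) of 12 genes in cycling Ttr-high cells by the share of S phase UMIs (under 20%, 20% to under 50%, 50% or more), with exact Poisson 95% intervals. Replication genes such as Mcm6 go from 17.9 to 248 CPM, mitotic genes such as Cenpa from 935 to 20.7 CPM, and Slc38a5 and Isl1 stay near level.

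The rule, built mostly on late transcripts, left out some cells with many replication transcripts. At least 40 S phase UMIs were held by 82 of 138 cycling cells (59.4%) and by 82 of the 1280 other Ttr-high cells (6.41%; 5.13% to 7.89%), a limit chosen after the data were seen. In these 82 other cells the cycling sum had a median of 2, and 21 of them had 0. Their S phase share had a median of 62.9% (42% to 78.0%), so they held G2/M list UMIs as well. Such UMIs were present in all 1280 other Ttr-high cells, with a median of 24 (4 to 88) and a median S phase share of 27.3%. Holding them therefore does not mark these 82 cells. Median depth of the 82 cells was 35203 UMIs, above that of the Ttr-high cells not called cycling as a whole. Against the remaining 1198 cells, Mcm5 was at 51.1 and 1.19 CPM and Ccne2 at 24.2 and 5.16 CPM, genes of the list used to pick them. Outside that list, Mcm3 was at 100 and 1.69 CPM, Cdt1 at 18.5 and 0.350 CPM and E2f1 at 46.0 and 12.4 CPM. Ccna2, Plk1 and Cenpa had 1 UMI each in the 82 cells and Ccnb2 had 0, against 151 in the remaining cells. Slc38a5 was at 11641 and 12484 CPM and Gcg at 2061 and 2126 CPM. In the control, 34 of 570 Gcg-high cells below the rule (5.96%; 4.17% to 8.24%) reached 40 S phase UMIs. Counted by either criterion, 220 of 1418 Ttr-high cells (15.5%; 13.7% to 17.5%) and 84 of 620 control Gcg-high cells (13.5%; upper bound 16.5%) were cycling.

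Cycling Ttr-high cells were set against the 50 cycling control Gcg-high cells to show where cells in cycle differed between the libraries. This comparison shares its Ttr-high cells with those above. Of 6193 genes compared, 402 were higher (6.49%) and 449 lower (7.25%) in the Ttr-high cells; without setting ratios relative to the median gene, which stood at 0.42, the counts were 962 and 165. The classes were chosen by Ttr and Gcg, and the library, the genotype and the class cannot be told apart. The sex of the cells differed too. Cells with Xist and no Y-linked UMI were 41.3% of the cycling Ttr-high and 10% of the cycling control Gcg-high cells. Those with Y-linked UMIs and no Xist were 53.6% and 82%. The part of sex in the differences was not tested. Cell depth was a median of 33691.5 UMIs in the Ttr-high and 27971 in the control cells.

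Cd24a, Slc38a5 and gut hormone genes were among the 12 genes with the highest ratios. Cd24a, a surface glycoprotein, was at 487 against 2.20 CPM and was found in 137 of 138 against 3 of 50 cells. Slc38a5 was at 10124 against 714 CPM, a log2 ratio of 3.41 (3.31 to 3.50), with medians of 333 and 13.5 UMIs. The gut hormone genes Sct (secretin, 3.90) and Cck (cholecystokinin, 4.27) and the angiotensinogen gene Agt (2.86) were in this group, as were Ttyh1 (3.50), Ppp1r14c (4.68), Cidea (4.06) and the endoplasmic reticulum genes Fkbp11 (2.89) and Rcn3 (2.92). Rprml had 222 UMIs against 0 and C1ql3 165 against 0. In the cells not called cycling, which covered 11533 genes with 992 higher (8.6%) and 827 lower (7.17%), these stood at 4.41 for Cd24a, 4.60 for Sct, 4.23 for Cck, 5.19 for Ttyh1, 5.59 for Rprml and 5.88 for C1ql3. Chga (1.70) and Chgb (2.43) were higher in the cycling Ttr-high cells, while the granule list as a whole had 3 of 20 higher and 3 lower (median -0.02). Of 16 endoplasmic reticulum folding genes, 7 were higher and 0 lower (median 0.94), with Sdf2l1 at 1.96 (1.68 to 2.26), Manf at 1.19 and Hspa5 at 0.68. This list had 11 of 18 higher and 0 lower (median 1.32) in the cells not called cycling, so the difference was not particular to cycling cells.

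Hormone genes were among the lowest 12. Gcg stood at -7.95 and Pyy at -6.56, with Pou3f4 (-4.31) and Dapl1 (-4.78) also among the lowest 12. In the cells not called cycling, Gcg stood at -7.21 and Pyy at -5.33. Ppy (-9.39) was at 18.4 against 9234 CPM, with 61.4% of its 88 UMIs in the Ttr-high cells held by 1 cell and 35.8% of its 12600 control UMIs by 1 cell, and Col3a1 and Dcn owed nearly all theirs to 1 control cell with mesenchymal transcripts. Of 11 alpha cell genes 5 were lower and 1 higher (median -0.62, and -0.20 without setting ratios relative to the median gene). Jun was lower, at 33.8 against 119 CPM (-2.23; -2.56 to -1.91).

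Cell cycle lists were also compared, against a background of 6.49% of all genes higher and 7.25% lower. The S phase list had 0 of 37 higher and 12 lower (median -0.66), the G2/M list 0 of 45 and 8 (-0.58) and the chromosome structure list 0 of 25 and 7 (-0.82). Without setting ratios relative to the median gene, 7 of 37 S phase genes (median -0.24) and 0 of 45 G2/M genes (-0.16) were lower, against 165 of all 6193. The licensing list stood at -0.34 on the first scale and at 0.08 on the second, so its direction depends on the scale. Single genes differed in direction. Cenpa was at 491 against 298 CPM (0.30; 0.15 to 0.45) and Ccnb2 at 347 against 212 CPM (0.29; 0.11 to 0.48). Plk1 was at 87.9 against 66.7 CPM (-0.02; -0.35 to 0.32) and Mcm6 at 113 against 133 CPM (-0.66; -0.90 to -0.40). Isl1 was at 389 against 375 CPM (-0.37; -0.51 to -0.23), with medians of 12 and 9 UMIs.

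The 27 cycling Isl1CKO cells outside the Ttr and insulin limits were a mixed group. Against them, the cycling Ttr-high cells had 111 genes higher (2.31%) and 100 lower (2.09%) of 4795 compared, with C2cd4a at 2.43, Cav1 at 2.51, Vgf at 1.65, Sct at 1.30, Tmem27 at 1.21 and Slc38a5 at 1.16. Slc38a5 was thus also present in the 27, at 4089 CPM against 10124 CPM. Iapp was at 16776 CPM in them and Pyy at 5221 CPM. Gcg was at 2.23, with 80.3% of the UMIs of the 27 in 1 cell. The lowest ratios were of collagen genes, Col1a1 with 0 against 103 UMIs, and 2 of the 27 cells reached 3 UMIs of the mesenchymal list.

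Markers of other cell types were counted in the cycling Ttr-high cells. The mesenchymal list reached 3 UMIs in 0 of 138 cells (exact upper bound 2.64%), with Col1a1, Lum and Pdgfrb at 0. Endothelial markers reached 3 UMIs in 3 cells (2.17%), with Cdh5, Emcn, Flt1 and Eng at 0. Nerve and Schwann markers did so in 25 cells (18.1%; others 21.5%), with Sox10 and S100b at 0. The immune list did so in 39 cells (28.3%; others 26.2%), nearly all through C1qa, with Ptprc, Lyz2, C1qb, Cd52 and Laptm5 at 0. Duct markers did so in all 138 (others 98.8%), carried by Krt7 at 367 CPM and Spp1 at 162 CPM, with Cftr at 0. Beta cell markers reached 3 UMIs in 114 cells (82.6%; others 84.5%), summing to 1854 against 1015 CPM, most of it Iapp, with Mafa, Npy and Adcyap1 at 0. Delta cell markers did so in 137 cells (99.3%; others 99.3%), most of their sum being Rbp4, with Ghsr, Lepr and Ptprz1 at 0. Gamma cell markers did so in 96 cells (others 768 of 1280), with Aqp3 at 0, and epsilon cell markers in 103 (74.6%; others 65.7%). The enterochromaffin list summed to 7662 CPM in cycling and 10778 CPM in other Ttr-high cells and to 1096 CPM in cycling control Gcg-high cells. Most of it was Chgb, and Lmx1a and Slc18a2 were at 0. Acinar transcripts reached 3 UMIs in 32 cells (23.2%; others 22.3%). The part of these transcripts in the differences above was not tested.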

How the data were processed

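Sorted tdTomato-positive islet cells were profiled with 10x Chromium 3' v3.1 libraries, 1 per genotype, each from 6 pooled animals. The authors deposited UMI counts per gene and barcode, whole numbers that were not normalized. The build GRCm38.p6 and the tools Seurat 4.3.0.1, STARsolo and STAR 2.7.3a appear in the submitters' processing notes, with no role for Seurat. The Isl1CKO matrix held 3020 barcodes (lowest 4882 UMIs) and had been filtered before deposit; 33 failed the limits on genes and mitochondrial UMIs. The control matrix listed 6794880 barcodes, of which those with at least 6826 UMIs (1/10 of the 99th percentile of the top 3000) were taken as cells before the same limits, leaving 2496.

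UMIs were summed over the cells of a group, scaled to the group's total (CPM) and compared as log2 ratios relative to the median gene, among genes with at least 50 UMIs in the group with the higher value. No test was run, since each genotype is 1 library. Exact intervals at 95% are conditional binomial for ratios, Poisson for levels and Clopper-Pearson for shares. A group at 0 UMIs was set to a floor of 3 per group. Because the sums differ in size, the minimum of 50 UMIs is stricter for genes raised in the smaller group. No doublet caller was used. The members and the gene lists were chosen with earlier results of these data known.

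Named genes are members of the fixed lists, the 12 highest and 12 lowest ratios of a comparison by the interval bound nearest to 0, and the 12 highest outside the cell cycle lists. Rule, mitochondrial, ribosomal, predicted, Xist, Y-linked, acinar and erythroid genes were left out of the ranking. Of 603 list symbols, 595 matched as written and 7 through synonyms. Gene coordinates are from GENCODE M21, which holds 46488 of the 46983 identifiers, and promoters from RefSeq. The alternatives varied the rule, depth, scaling, minimum count, sex of cells and marker-bearing cells. Python 3.11.15, numpy 2.4.6, pandas 2.3.3, scipy 1.17.1 and matplotlib 3.10.9 were used, and the comparison was tested on simulated data. Results for some genes are not reported here.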

Additional observations from a re-analysis of the deposited data

How the results depend on the processing

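No paired analysis was possible because each genotype is 1 library, and for the same reason no replicate could be left out. The share of cycling cells (9.73%) was 12.1% with a cycling sum of at least 5, 8.18% with at least 20, 7.38% with Ttr of at least 10% and 15.5% with 40 S phase UMIs as another way in, the last chosen after the data were seen. Leaving out cells with at least 3 UMIs of the mesenchymal, endothelial, immune, duct or nerve list kept 9 Ttr-high cells. Duct markers occur in nearly all Ttr-high cells. Of the 9 cells kept, 0 (0%) cycled, and no gene comparison could be made there. 

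Genes lower in cycling Ttr-high cells (376) numbered 212 with a cycling sum of at least 5, 571 with hormone, mitochondrial, acinar, erythroid and rule genes out of the totals, 674 with a minimum of 20 UMIs, 95 with 200 and 144 with the S phase addition. Genes higher (799) numbered 451 in thinned cells and 397 with a minimum of 200 UMIs. Higher calls were 68% of all calls, 56.2% on CPM as it is and 54.5% with those genes out of the totals. Against cycling control Gcg-high cells (402 higher, 449 lower) the counts were 192 and 189 in thinned cells, 962 and 165 on CPM as it is, 792 and 861 with a minimum of 20 UMIs, 147 and 90 with 200, and 675 and 81 against control cells that pass the Ttr rule.

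The S phase median (3.27) was 3.55 with Ttr of at least 10%, 3.53 in Xist-only cells and 3.83 with the S phase addition, which also gave 5.75 for the G2/M median (6.25). The alpha cell median (-0.21) was -0.11 in thinned cells and with a minimum of 200 UMIs, -0.12 in Xist-only cells, -0.35 on CPM as it is and -0.38 with those genes out of the totals. Reversed were Ppy (-1.20 with a cycling sum of at least 20, -1.37 in cells with Y-linked UMIs only), Iapp (-0.96 with Ttr of at least 10%, -1.10 without cells bearing mesenchymal, endothelial or nerve markers) and Sst (6.15 with the S phase addition). Over single genes of the cycling against other comparison and all settings, 7883 values kept their call under the 2-fold rule. Another 77 passed it, 71 no longer did and 5 reversed. A gene under 2-fold in both settings was counted as kept whatever its sign, so small changes of direction are not among the reversed. The cause of these shifts was not tested.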
